A study of Homo sapiens with 22 samples.

Results

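Regions near 8 genes of the androgen receptor and luminal programme were collected from 22 deposited lists of enriched or accessible regions in 3 human prostate cancer cell lines. The genes were KLK3, KLK2, TMPRSS2, FKBP5, NR3C1, KRT8, KRT18 and STEAP2. A region belonged to the set when it lay within 50 kb of a gene body in the GENCODE annotation of hg19, and 486 of 871377 deposited regions did so. Because KLK3 and KLK2 are neighbours, as are KRT8 and KRT18, the 8 windows formed 6 loci of 1131 kb in all. Regions that fall in both windows of a pair are counted for both genes and once for the locus. When overlapping regions of all lists were merged, the loci held 197 separate places, of which 101 carried a region for JUN or FOXA2.

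The androgen receptor is a steroid-activated transcription factor that drives the luminal secretory programme of the prostate, and tumours that lose it can take on neuroendocrine or other non-luminal identities. KLK3, which encodes prostate-specific antigen, KLK2, a related kallikrein protease, and TMPRSS2, a membrane serine protease, are classical androgen-induced genes. FKBP5 encodes a co-chaperone of steroid receptors and is induced by both androgen and glucocorticoid receptors, and NR3C1 encodes the glucocorticoid receptor itself. KRT8 and KRT18 encode the paired keratins of luminal epithelium, and STEAP2 encodes a metalloreductase of the prostate epithelial surface. FOXA1 and FOXA2 are forkhead pioneer factors that bind closed chromatin, whereas JUN and FOSL1 are subunits of the AP-1 dimer.

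LNCaP is an androgen receptor-positive adenocarcinoma line, PC3 is an androgen receptor-negative line, and NCI-H660 is a neuroendocrine line. LNCaP gave 5 lists. JUN was profiled after a control siRNA (siNC) or an siRNA against FOXA1, JUN and FOXA2 were profiled in vehicle-treated cells overexpressing FOXA2 (LNCaP_FOXA2OE), and JUN was profiled in vehicle-treated LNCaP_FOXA2K265R cells. The title of that last sample names FOXA2K265R, a FOXA2 with lysine replaced by arginine, whereas its cell line label reads LNCaP_FOXA2OE. The overexpressing lines were stable transductants, and neither the sources nor the files say whether they were clones. PC3 gave 11 lists. These were FOXA2 after vehicle, 10 μM ORY-1001 or 0.5 μM C12 for 4 h, JUN and FOSL1 after siNC or siFOXA2, H3K27ac and ATAC in vehicle-treated cells, and a pair of other vehicle FOXA2 ChIP-seq experiments whose antibody is not labelled. ORY-1001 and C12 are inhibitors of the histone demethylase LSD1. NCI-H660 gave 6 lists, FOXA2 after vehicle or 10 μM ORY-1001 for 4 h, JUN after siNC or siFOXA2, and H3K4me2 and ATAC in vehicle-treated cells. The NCI-H660 medium contained hydrocortisone, a glucocorticoid, and β-estradiol, each at 10 nM, and the medium of the other lines was not described as containing any added steroid.

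Each condition had 1 list, except for the pair of other PC3 FOXA2 experiments, so differences between lists have no replicate check and no p-value is given. Intervals are Wilson 95% intervals and cover counting error only. The lists ranged from 1538 regions (PC3 FOSL1 after siFOXA2) to 210960 (PC3 ATAC), and sequencing depth is unknown, so a missing region means that none was called in that list. In 20 lists each region carries a whole-number score from the peak caller that rises with significance. Scores were not compared in size between lists. Instead each score is followed by its rank, given as the share of the list's regions that scored at least as high. The LNCaP siNC JUN and LNCaP_FOXA2OE FOXA2 lists carried no score. As a check of the cell line labels, promoters (within 1 kb of an annotated start) of marker genes were counted. Of 8 neuroendocrine genes, NCI-H660 had 8 in ATAC (74.7% of all promoters) and 8 in H3K4me2 (74.5%). PC3 had 5 in ATAC (77.6% of all promoters) and 1, SYP, in H3K27ac (68.1%). Of 8 basal and mesenchymal genes, NCI-H660 had 6 in each of these lists. PC3 had 6 in ATAC and 5 in H3K27ac, so this second marker list did not separate the lines.

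JUN was found near a subset of the 8 genes in control LNCaP cells and near a partly different subset in the androgen receptor-negative lines. In LNCaP siNC cells JUN lay near KLK3, KLK2, KRT8 and KRT18, 4 of 8 genes, whereas 13.4% of all 20136 protein-coding genes had a JUN region within 50 kb in that list. In PC3 siNC cells JUN lay near 6 of 8 genes, all but the KLK pair, and the background was 62.8%. In NCI-H660 siNC cells only FKBP5, KRT8 and KRT18 had JUN, 3 of 8 genes, beside a background of 66.3%. FOXA2 lay near the same 6 genes as JUN in PC3 vehicle cells (background 54.1%) and near FKBP5, NR3C1, KRT8 and KRT18 in NCI-H660 vehicle cells (background 37.6%). The 4 LNCaP genes came from 3 JUN regions at the KLK and keratin loci, so they are not 4 independent observations, and with windows of 10 kb only the 2 keratin genes remained. The windows of the 8 genes had a median length of 160 kb, against 127 kb for all protein-coding genes, and these shares were not adjusted for it. Longer lists also reach more genes. When each list was reduced to as many of its highest-scoring regions as the LNCaP siNC JUN list holds, PC3 siNC JUN, PC3 vehicle FOXA2, NCI-H660 vehicle FOXA2 and LNCaP_FOXA2K265R JUN each lay near 3 of 8 genes, and NCI-H660 siNC JUN and LNCaP_FOXA2OE JUN near 2.

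**Figure D1:**
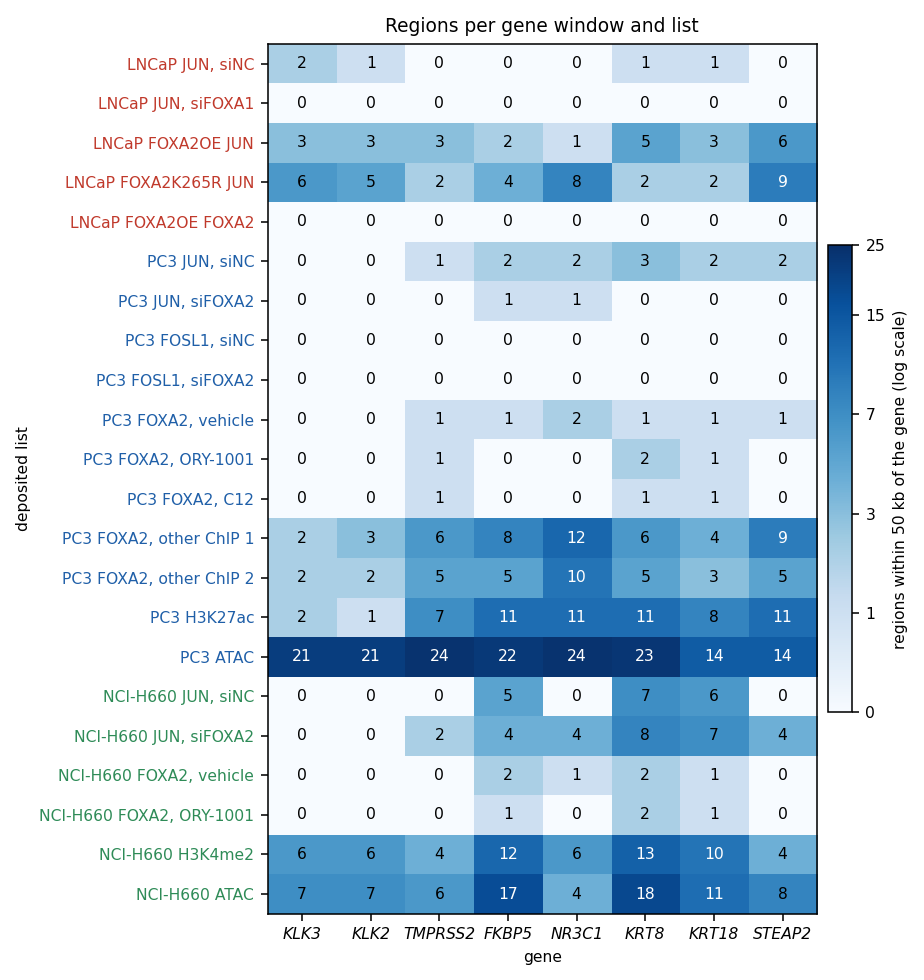
Number of regions within 50 kb of each gene (columns) in each of the 22 lists (rows), coloured on a log scale, with row labels coloured by cell line. KLK3 and KLK2 hold 0 regions in every PC3 and NCI-H660 JUN list, in the FOSL1 lists and in the vehicle and inhibitor FOXA2 lists, whereas KRT8 holds 1 to 8 regions in most factor lists.

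After silencing or inhibition the counts differed in direction between lines. FOXA1 silencing in LNCaP left 0 of 8 genes with a JUN region (background 8.65%). FOXA2 silencing left 2 of 8 genes, FKBP5 and NR3C1, in PC3 (background 16.7%), whereas in NCI-H660 it was followed by JUN regions near 6 of 8 genes, all but the KLK pair (background 83.6%). ORY-1001 left FOXA2 near TMPRSS2, KRT8 and KRT18 in PC3 (3 of 8, background 39%), and C12 left it near the same 3 genes (background 28.7%). In NCI-H660, ORY-1001 left FOXA2 near FKBP5, KRT8 and KRT18 (3 of 8, background 35.5%). FOSL1, which often pairs with JUN, was near 0 of 8 genes in PC3 after either siRNA, with backgrounds of 17.4% after siNC and 8.51% after siFOXA2.

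Both LNCaP lines with introduced FOXA2 had JUN near 8 of 8 genes, with backgrounds of 79.5% in LNCaP_FOXA2OE and 85.1% in LNCaP_FOXA2K265R. Control LNCaP cells received an siRNA and these lines vehicle, so the lists differ in more than FOXA2. The paper reports hormone-depleted conditions for protein measurements in FOXA2-overexpressing LNCaP cells. Whether such conditions applied to these ChIP-seq samples is not stated in the sources. The FOXA2 list from LNCaP_FOXA2OE held only 2500 regions and none near the 8 genes, and its background was 6.04%. The 2 other PC3 FOXA2 experiments reached 8 of 8 genes, with backgrounds of 86.5% and 82.9%. Open or marked chromatin was present near every gene in PC3 ATAC (background 99.1%), PC3 H3K27ac (92.5%), NCI-H660 ATAC (95.9%) and NCI-H660 H3K4me2 (94.7%).

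**Figure D2:**
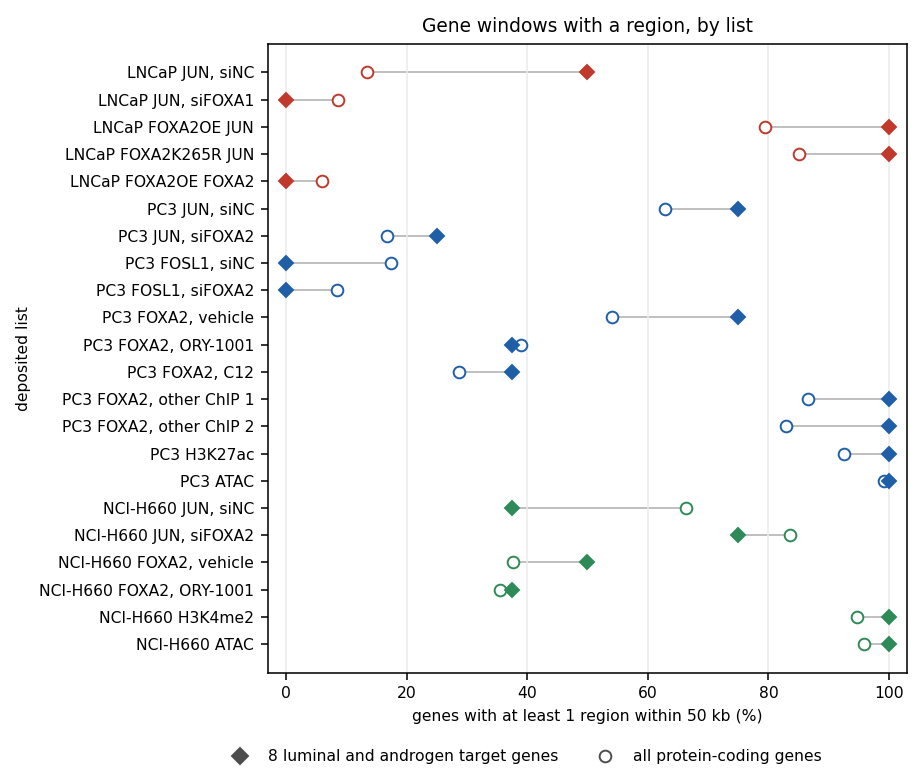
Share of genes with at least 1 region within 50 kb (x axis, percent) in each list (y axis), for the 8 genes (diamonds) and for all protein-coding genes (circles), coloured by cell line. The gap is widest for LNCaP siNC JUN, where 4 of 8 genes stand beside 13.4% of all genes, and NCI-H660 siNC JUN is the control list in which the 8 genes lie furthest below the background of 66.3%.

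Counts per length were also compared with the windows of all genes. The loci held 2.65 JUN regions per Mb in LNCaP siNC cells, against 0.772 per Mb over the windows of all protein-coding genes, a ratio of 3.44 that rests on 3 regions. The corresponding ratios were 0.984 for PC3 siNC JUN, from 10 regions, and 1.43 for NCI-H660 siNC JUN, from 12 regions of which 7 were at the keratins and 5 at FKBP5. After silencing they were 0 for LNCaP JUN (siFOXA1), 1.36 for PC3 JUN, from 2 regions, and 0.846 for NCI-H660 JUN, from 22 regions. For FOXA2 they were 0.623 in PC3 vehicle cells, from 6 regions, and 1.04 in NCI-H660 vehicle cells, from 5 regions, whereas the other PC3 FOXA2 lists gave 1.35 and 1.25, from 44 and 33 regions. The JUN ratios of the FOXA2-expressing LNCaP lines were 1.78 and 1.47. Of the 101 places with a factor, 39 were in PC3 lists only, 31 in LNCaP lists only and 15 in NCI-H660 lists only, and 3 were in lists of all 3 lines.

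Promoters of the members were open about as often as those of all genes in the androgen receptor-negative lines, and the KLK3 promoter was open in neither. PC3 ATAC had a region at 7 of 8 promoters, all but KLK3, beside 77.6% of the promoters of 19794 genes. NCI-H660 ATAC had 6 of 8, all but KLK3 and KLK2, beside 74.7%. The same 6 promoters carried H3K27ac, a mark of active chromatin, in PC3 (background 68.1%) and H3K4me2, a mark of active and primed chromatin, in NCI-H660 (background 74.5%). In the control lists of these lines, JUN and FOXA2 were at 2 or 3 of the 8 promoters. These counts were above the share of all promoters but rest mainly on the keratin pair. JUN was at 2 of 8 promoters in PC3 siNC cells (KRT8 and KRT18, background 10.7%) and at 3 of 8 in NCI-H660 siNC cells (those and FKBP5, background 22.7%). FOXA2 after vehicle was at KRT8 and KRT18 in both lines, beside 4.97% of promoters in PC3 and 3.26% in NCI-H660. The longer of the other PC3 FOXA2 lists also had regions at the TMPRSS2 and STEAP2 promoters, beside 21.1% of all promoters. The KRT8 call counts an annotated KRT8 start that lies next to KRT18, so the pair of promoters share 1 FOXA2 region in each vehicle list.

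The keratin locus held the place found in the most lists. This place lies in intron 1 of KRT18, about 0.8 kb after its start on chromosome 12, and regions of 16 of 22 lists overlapped there. In LNCaP siNC cells the JUN region was chr12:53343595-53343854, and no LNCaP JUN region was called there after siFOXA1. Of the factors in PC3, FOXA2 ranked highest there. FOXA2 scored 1229 in vehicle cells, within the top 1.61% of its list. It scored 1299 after ORY-1001 (top 1.14%) and 766 after C12 (top 2.79%), so it was called with both inhibitors. The lists differ in length, and whether FOXA2 binding there changed was not tested. The other PC3 FOXA2 experiments scored 1814 (top 1.02%) and 1272 (top 1.8%).

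JUN at the same KRT18 place scored 616 in PC3 siNC cells (top 5.46%), and no region was called there after siFOXA2. In NCI-H660, by contrast, JUN scored 1073 after siNC (top 1.8%) and was still called after siFOXA2 at 353, within the top 1.63% of that longer list. NCI-H660 FOXA2 was lower in rank, at 408 after vehicle (top 11.1%) and 420 after ORY-1001 (top 11.2%). LNCaP_FOXA2K265R JUN scored 227 there (top 3.19%). LNCaP_FOXA2OE JUN instead had a region that ended before the place, at chr12:53342699-53343189 over exon 1 of KRT18, with a score of 63 (top 51.6%). The chromatin was among the most open or marked in each list, with ATAC at 4482 in PC3 (top 0.933%) and 1803 in NCI-H660 (top 3.5%), PC3 H3K27ac at 3047 (top 1.06%) and NCI-H660 H3K4me2 at 690 (top 2.7%).

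The sequence of the KRT18 place is shown because an AP-1 motif and a forkhead motif stand side by side in it. AP-1 motifs were searched as TGACTCA or TGAGTCA, and forkhead motifs as TGTTTAC, with A allowed for its G, G for its A and T for its C, each on both strands. Capitals mark both kinds of motif here and below. The bases are the GRCh37 (hg19) plus strand at chr12:53343667-53343854, the part of the LNCaP JUN region outside annotated untranslated bases, and the motif starts are 14 bp apart.
KRT18 intron 1 place: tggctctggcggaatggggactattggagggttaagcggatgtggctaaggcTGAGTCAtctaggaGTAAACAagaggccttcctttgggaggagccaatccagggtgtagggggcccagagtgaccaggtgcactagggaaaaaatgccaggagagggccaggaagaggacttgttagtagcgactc
A second keratin place, in intron 1 of KRT8, was found in 10 lists and is shown for comparison, because JUN but not vehicle FOXA2 was called there. Its sequence is chr12:53297692-53297905, the whole LNCaP_FOXA2OE JUN region, in which the AP-1 and forkhead motif starts are 56 bp apart.
KRT8 intron 1 place: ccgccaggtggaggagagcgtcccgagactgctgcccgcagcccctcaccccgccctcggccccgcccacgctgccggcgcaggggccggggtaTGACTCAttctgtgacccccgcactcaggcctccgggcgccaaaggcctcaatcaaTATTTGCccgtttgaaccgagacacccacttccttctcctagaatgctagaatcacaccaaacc
Matches of these letters are a description of the sequence and not of a bound factor.

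At the KRT8 place JUN scored 344 in PC3 siNC cells (top 16.3%) and was not called after siFOXA2. In NCI-H660 it scored 578 after siNC (top 5.63%) and 415 after siFOXA2 (top 1.27%). Neither siNC nor siFOXA1 LNCaP cells had JUN there, whereas LNCaP_FOXA2OE scored 233 (top 2.18%) and LNCaP_FOXA2K265R 434 (top 1.43%). The other PC3 FOXA2 experiments had weak regions, at 58 and 57 (top 82.5% and 82.1%). The keratin windows held further JUN and FOXA2 regions. NCI-H660 JUN had a region at chr12:53301953-53302327, 3280 bp before the KRT8 start, that scored 569 (top 5.79%) and was not called after siFOXA2. PC3 JUN had a region at chr12:53267982-53268355, 30691 bp past the KRT8 start and beyond the gene, that scored 451 (top 10.2%). It too was not called in PC3 after siFOXA2, whereas NCI-H660 JUN after siFOXA2 had a region over it that was not called after siNC, with a score of 151 (top 4.52%). NCI-H660 FOXA2 had a weaker region just downstream of KRT8, at chr12:53289202-53289498, that scored 108 after vehicle (top 60%) and 39 after ORY-1001 (top 89%).

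**Figure D3:**
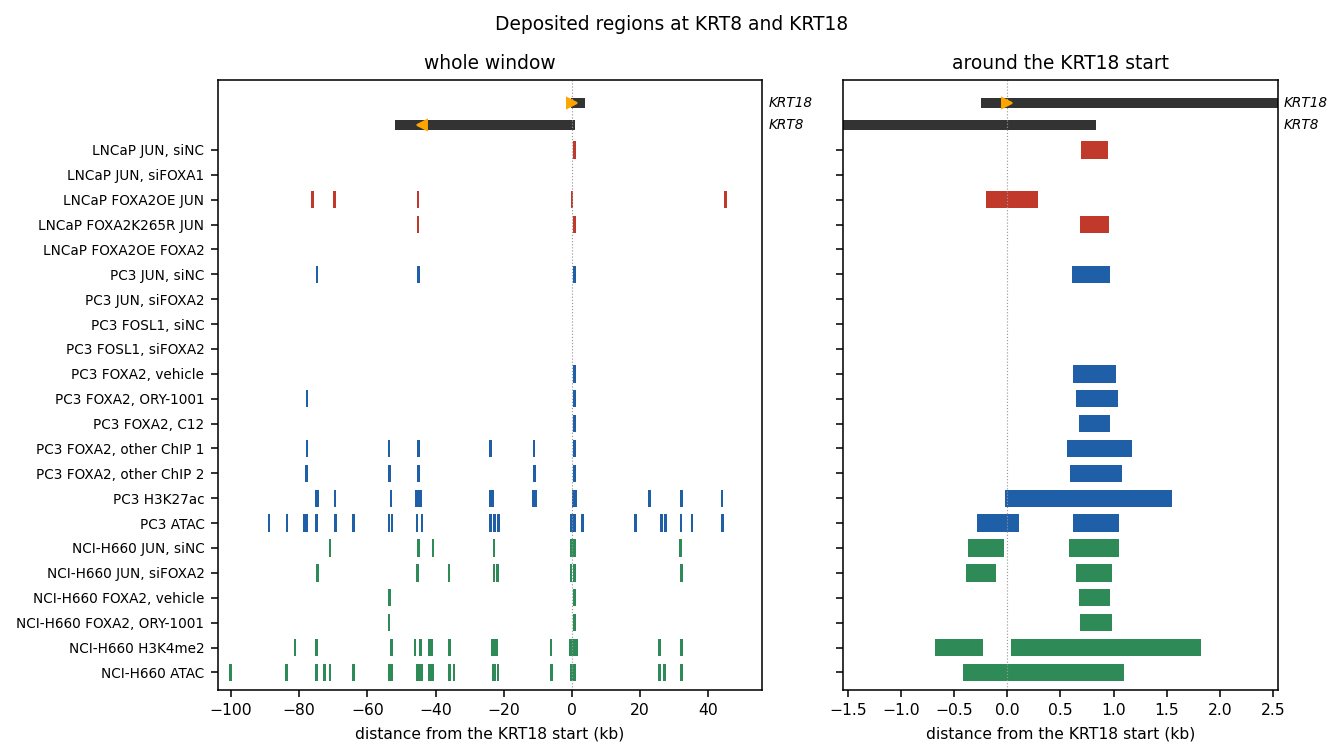
Deposited regions at the keratin locus by list, plotted as distance from the KRT18 start in kb, over the whole window (left) and around the start (right). Black bars are gene bodies, orange arrowheads are the canonical starts, and bars are regions coloured by cell line. Most lists share a region about 0.8 kb after the KRT18 start, while LNCaP_FOXA2OE JUN lies over the start itself and PC3 JUN after siFOXA2 has none.

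At the KLK locus LNCaP siNC cells had JUN and the androgen receptor-negative lines had none. LNCaP siNC JUN had 2 regions there, of which the one described here, chr19:51399965-51400239, lies between KLK2 and KLK4, 23407 bp past the KLK2 start. Neither of the 2 was called after siFOXA1. No JUN or FOSL1 region of PC3 or NCI-H660, after any siRNA, lay in the KLK3 or KLK2 windows, nor did any region of the vehicle or inhibitor FOXA2 lists. The other PC3 FOXA2 experiments had 3 regions each, scoring from 42 to 126, of which the best supported was 17540 bp past the KLK2 start (scores 89 and 94, top 65% and 60.5%). KLK3 had 2 LNCaP siNC JUN regions in its window, more than 98.5% of all genes in that list.

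The sequence of the region between KLK2 and KLK4 is given because it held an AP-1 motif and was also open in the other lines.
KLK2 to KLK4 region: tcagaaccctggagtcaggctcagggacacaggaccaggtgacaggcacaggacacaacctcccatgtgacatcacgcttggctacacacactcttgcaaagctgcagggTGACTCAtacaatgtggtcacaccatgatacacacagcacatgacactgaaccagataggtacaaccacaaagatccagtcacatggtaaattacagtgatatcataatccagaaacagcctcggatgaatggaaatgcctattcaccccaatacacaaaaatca
The KLK2 to KLK4 region overlapped ATAC regions of NCI-H660, chr19:51399702-51400272 with a score of 220 (top 56.3%), and PC3, chr19:51399908-51400252 with a score of 156 (top 43.8%). It also overlapped LNCaP_FOXA2K265R JUN at chr19:51399928-51400124, with a score of 68 (top 27.4%).

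LNCaP lines with introduced FOXA2 had JUN elsewhere in the KLK locus. LNCaP_FOXA2K265R JUN was called at the KLK2 promoter, chr19:51376373-51376691, with a score of 132 (top 6.4%), and near the upstream edge of the KLK3 window at chr19:51308186-51308454, with a score of 145 (top 5.64%). Its region at chr19:51340598-51340850, near a start of the neighbouring kallikrein gene KLK15, scored 150 (top 5.42%). LNCaP_FOXA2OE JUN had 3 regions, of which the highest was chr19:51339284-51339486 at another KLK15 start, with a score of 100 (top 12.1%). The KLK3 promoter itself carried a region in none of the 22 lists.

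PC3 H3K27ac was nearly absent from the locus. Its 2 regions were 1 of rank 0.242% at the upstream edge of the KLK3 window, chr19:51306638-51308614, with a score of 4887, and 1 with a score of 40 near KLK15. PC3 ATAC nevertheless had 21 regions in each of the KLK windows. The longest stretch without a region of any PC3 list was 34.6 kb and contained the whole of KLK3. In NCI-H660 a region over intron 4 of KLK3 carried H3K4me2 (chr19:51361909-51362584, score 106) and ATAC signal (from 51362061, score 255).

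**Figure D4:**
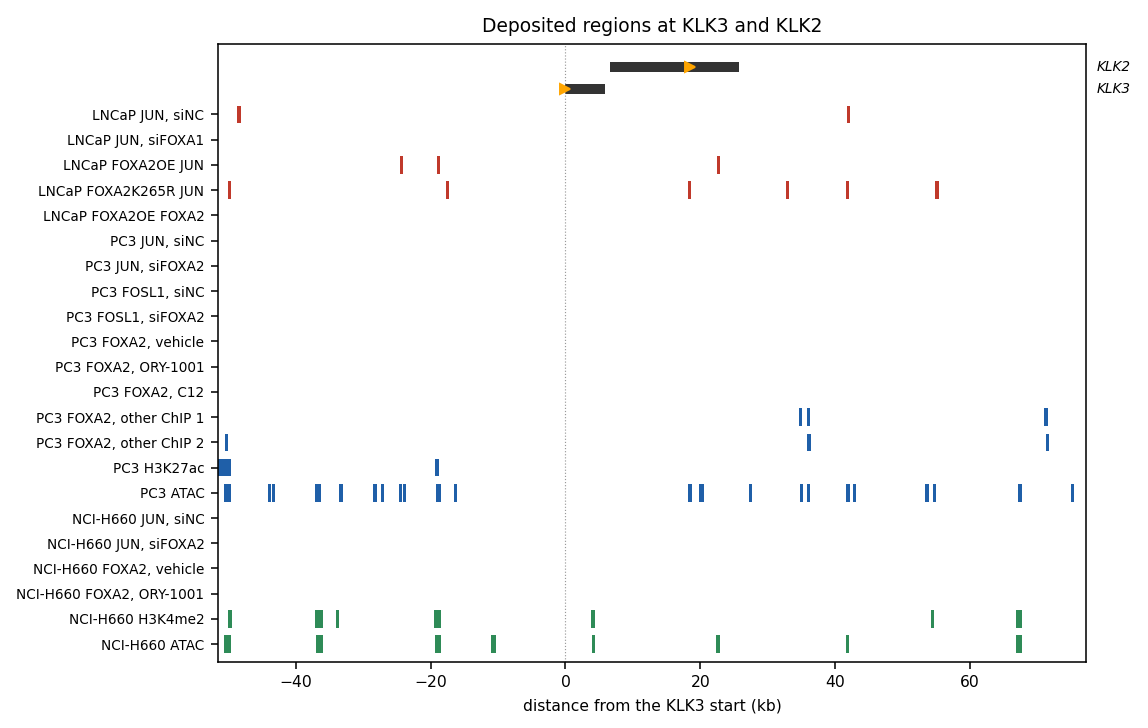
Deposited regions at the KLK locus by list, plotted as distance from the KLK3 start in kb, with gene bodies in black, canonical starts as orange arrowheads and regions coloured by cell line. LNCaP siNC JUN has a region near the upstream edge of the window and another between KLK2 and KLK4. PC3 and NCI-H660 JUN rows are empty, and no row has a region at the KLK3 start.

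At TMPRSS2 the LNCaP siNC JUN list had no region, and PC3 had 1 JUN and 1 FOXA2 region inside the window. PC3 JUN lay in intron 1 at chr21:42873882-42874217, 6035 bp past the start, with a score of 391 (top 13.2%), and was not called after siFOXA2. PC3 FOXA2 lay 72283 bp before the start, at chr21:42952172-42952563, near the far edge of the window. It scored 743 after vehicle (top 5.63%), 315 after ORY-1001 (top 14%) and 115 after C12 (top 50.9%), so it was called with both inhibitors. The lists differ in length, and whether its binding changed was not tested. The other PC3 FOXA2 experiments scored 1110 (top 4.11%) and 1173 (top 2.26%) there. The window ends close to this site, and within 1 kb past its edge PC3 JUN was called after siNC at chr21:42953047-42953477 (score 655, top 4.8%) and after siFOXA2 (score 161, top 26.3%), as was FOSL1 after siNC (score 70, top 54.7%). These regions are not counted among those of the 8 genes. NCI-H660 had no FOXA2 and no siNC JUN region in the TMPRSS2 window. After siFOXA2, NCI-H660 JUN had 2 weak regions, 1 at the promoter with a score of 33 (top 65.7%) and 1 with a score of 21 (top 93.7%).

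The TMPRSS2 sequences are shown because the JUN site carried AP-1 motifs only, and the FOXA2 site carried a forkhead motif beside a sequence close to the androgen response element. This element, bound by androgen and glucocorticoid receptors, was searched as AGAACA, any 3 bases, then TGTTCT, on both strands and with up to 2 mismatches. The JUN sequence is the central part of the region, chr21:42873950-42874150, and the FOXA2 sequence is chr21:42952268-42952468, in which the first run of capitals is the element-like match with 2 mismatches.
TMPRSS2 intron 1, PC3 JUN: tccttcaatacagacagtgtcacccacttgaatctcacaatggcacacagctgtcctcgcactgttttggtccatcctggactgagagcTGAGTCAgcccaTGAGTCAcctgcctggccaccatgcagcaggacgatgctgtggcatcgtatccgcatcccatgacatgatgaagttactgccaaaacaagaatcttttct
TMPRSS2 upstream, PC3 FOXA2: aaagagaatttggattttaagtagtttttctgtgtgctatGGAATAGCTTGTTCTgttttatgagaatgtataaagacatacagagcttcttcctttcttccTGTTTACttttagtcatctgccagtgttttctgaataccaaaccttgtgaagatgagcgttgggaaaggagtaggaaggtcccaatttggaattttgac
The upstream match was inside regions of 7 lists, all of them from PC3.

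At FKBP5 the androgen receptor-negative lines had factors and LNCaP siNC JUN had none. The FKBP5 window is 255 kb long, and region counts were not adjusted for window length. NCI-H660 siNC JUN had 5 regions in it, more than 95.5% of all genes in that list, but their ranks were low. The highest was chr6:35529935-35530223 downstream of the gene, with a score of 97 (top 43.1%). That region was still called after siFOXA2 (score 36, top 55.2%), whereas the other 4 were not, among them 1 at the promoter with a score of 39 (top 76.2%). NCI-H660 FOXA2 in intron 1, chr6:35642481-35642767, scored 287 after vehicle (top 20%) and 357 after ORY-1001 (top 14.6%). FOXA2 and JUN also met 66221 bp before the start, with scores of 69 and 83, and there FOXA2 was not called after ORY-1001 and JUN was not called after siFOXA2.

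PC3 FOXA2 and JUN met at FKBP5 over exon 6 and intron 6, 91867 bp past the start. FOXA2 there, chr6:35564605-35565045, scored 141 (top 52.9%) and was called after neither inhibitor, although the other PC3 FOXA2 experiments scored 355 and 354. JUN there scored 96 (top 71%), and a stronger JUN region in intron 5, chr6:35573995-35574307, scored 329 (top 17.6%). Neither JUN region was called after siFOXA2, which had 1 weak region at the FKBP5 promoter instead (score 34, top 84.3%).

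The PC3 FOXA2 site is printed with a nearby accessible site in which a full androgen response element was found. The FOXA2 sequence is the central part at chr6:35564725-35564925. The NCI-H660 ATAC sequence is chr6:35569766-35569966 in intron 5, in which the capitals mark a match with 0 mismatches at chr6:35569859-35569873.
FKBP5 gene body, PC3 FOXA2: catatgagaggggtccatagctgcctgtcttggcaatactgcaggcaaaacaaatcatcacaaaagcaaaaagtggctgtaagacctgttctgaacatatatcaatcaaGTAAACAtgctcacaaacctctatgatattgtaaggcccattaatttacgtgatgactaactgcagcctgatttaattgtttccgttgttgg
FKBP5 intron 5, NCI-H660 ATAC: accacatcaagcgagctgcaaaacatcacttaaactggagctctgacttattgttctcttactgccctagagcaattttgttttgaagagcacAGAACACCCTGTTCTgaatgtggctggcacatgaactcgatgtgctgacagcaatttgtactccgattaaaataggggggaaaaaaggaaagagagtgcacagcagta
The full element was inside regions of 4 lists, ATAC and H3K4me2 of NCI-H660 and ATAC and H3K27ac of PC3, so it was open in both lines. NCI-H660 siNC JUN was called next to it, at chr6:35569463-35569785, with a low score of 19 (top 97.5%).

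At NR3C1 lay the 1 PC3 JUN site near the 8 genes that was still called in PC3 after FOXA2 silencing. This site, chr5:142625573-142625971, lies beyond the 3′ end of the gene, 157479 bp past the start. It scored 434 after siNC (top 10.9%) and 163 after siFOXA2 (top 25.8%). Another PC3 JUN region, in intron 2, scored 49 (top 90.9%) and was not called after siFOXA2. PC3 FOXA2 had 2 regions, at chr5:142621538-142621857 (score 221, top 34.6%) and in intron 3 (score 98, top 68.8%), and neither was called after ORY-1001 or C12. Both were among the 12 and 10 regions of the other PC3 FOXA2 experiments in this window.

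NCI-H660 FOXA2 had 1 region at NR3C1, chr5:142735378-142735603 in intron 2. It scored 158 (top 43%), was not called after ORY-1001, and did not overlap an NCI-H660 ATAC region. The same place was accessible in PC3 and was called in the other PC3 FOXA2 experiments at 612 (top 11.6%) and 419 (top 15.6%), but not in the PC3 vehicle list. NCI-H660 siNC JUN had no region in this window, and siFOXA2 JUN had 4, with scores from 28 to 46. LNCaP_FOXA2K265R JUN had 8 regions, more than 91.3% of all genes in that list, against 1 for LNCaP_FOXA2OE. The NR3C1 window is 258 kb long, and the rank among genes was not adjusted for window length.

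The kept PC3 JUN site held 3 AP-1 motifs and no forkhead motif, and the NCI-H660 FOXA2 site held 2 forkhead motifs on either side of 1 AP-1 motif. They are shown at chr5:142625672-142625872, the central part of the JUN region, and chr5:142735378-142735603.
NR3C1 downstream, PC3 JUN: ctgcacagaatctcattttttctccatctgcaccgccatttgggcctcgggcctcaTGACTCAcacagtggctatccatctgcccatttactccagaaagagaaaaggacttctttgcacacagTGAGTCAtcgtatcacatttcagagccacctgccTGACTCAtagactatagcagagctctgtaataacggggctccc
NR3C1 intron 2, NCI-H660 FOXA2: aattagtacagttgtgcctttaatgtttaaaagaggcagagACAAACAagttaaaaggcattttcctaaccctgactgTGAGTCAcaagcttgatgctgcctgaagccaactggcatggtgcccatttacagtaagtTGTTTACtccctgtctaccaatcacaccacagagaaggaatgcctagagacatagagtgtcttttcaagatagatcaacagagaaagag

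At STEAP2 PC3 was again the line with control factor sites. JUN scored 593 at chr7:89808158-89808608 (top 5.95%), in an intron of a longer STEAP2 transcript, 32671 bp before the canonical start, and 58 at a distant upstream site. Neither was called after siFOXA2. FOXA2 nearby, at chr7:89809475-89810234, scored only 62 (top 85.9%) and was not called after either inhibitor. NCI-H660 had no FOXA2 and no siNC JUN region, but 4 JUN regions after siFOXA2, 1 of them at the STEAP2 promoter with a score of 46 (top 39.2%). The same promoter had JUN in LNCaP_FOXA2OE (score 84, top 21.6%) and LNCaP_FOXA2K265R (score 161, top 4.96%). With 6 and 9 regions in a window of 171 kb, STEAP2 exceeded 96% and 94.1% of all genes in those lists, without adjustment for window length. The STEAP2 window also covers promoters of STEAP1 and CFAP69, where some of these regions lay.

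**Figure D5:**
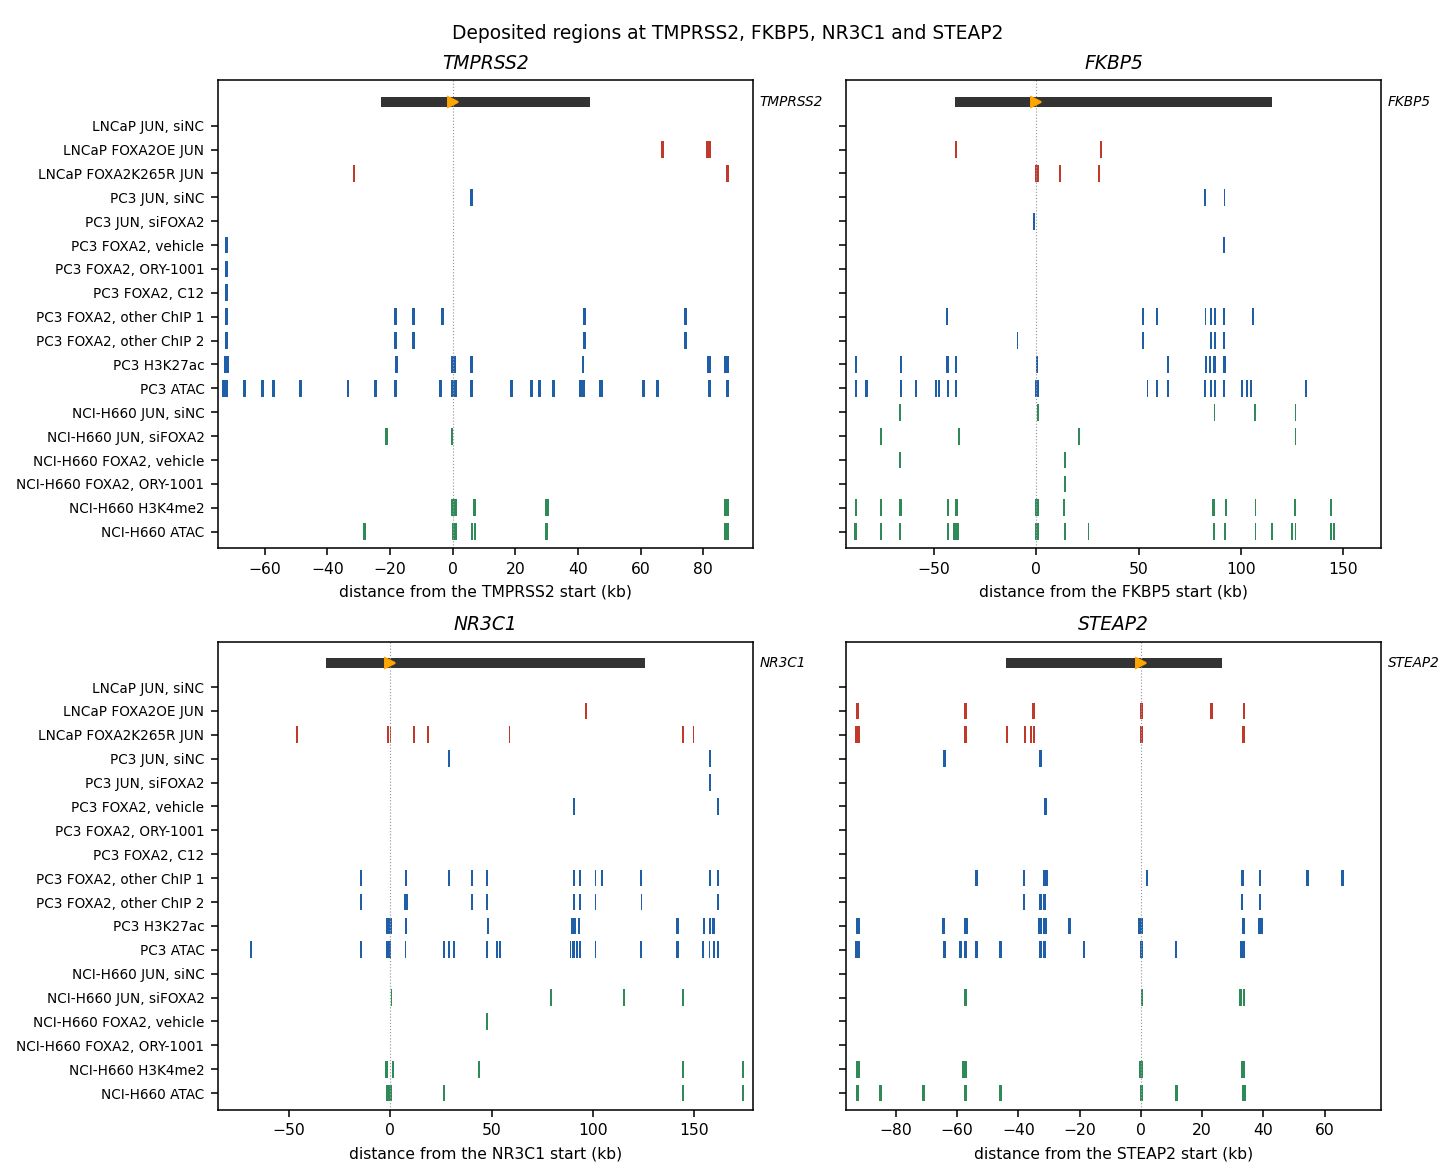
Deposited regions at TMPRSS2, FKBP5, NR3C1 and STEAP2 in 18 lists, plotted as distance from each canonical start in kb in the direction of transcription, with gene bodies in black and regions coloured by cell line. LNCaP siNC JUN is empty at all 4 genes, and NCI-H660 JUN at TMPRSS2, NR3C1 and STEAP2 appears only after siFOXA2.

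The regions kept after treatment were counted across the loci, beside the share that each whole list lost. ORY-1001 kept 2 of 6 PC3 FOXA2 regions (33.3%, interval 9.68% to 70%), while 63.2% of the whole list was lost. C12 kept the same number, while 70.4% of the whole list was lost. The regions kept with each inhibitor were those at KRT18 and upstream of TMPRSS2, which were also the highest ranked of the 6. In NCI-H660 ORY-1001 kept 3 of 5 FOXA2 regions (60%, interval 23.1% to 88.2%), beside 31.6% of the whole list lost.

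FOXA2 silencing kept 1 of 10 PC3 JUN regions (10%, interval 1.79% to 40.4%), beside 86.6% of the whole list lost. In NCI-H660 it kept 6 of 12 JUN regions (50%, interval 25.4% to 74.6%), beside 52% lost, and 16 of the 22 regions after siFOXA2 were new. Of the 6 kept, 5 were at the keratins. FOXA1 silencing in LNCaP kept 0 of 3 JUN regions (interval 0% to 56.1%), beside 50.4% of the whole list lost. For PC3 FOSL1, with no region near the 8 genes, 93.1% of the whole list was lost after siFOXA2.

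Overlap between factors near these genes also stayed within wide intervals. JUN overlapped 2 of 6 PC3 FOXA2 regions, those at KRT18 and FKBP5 (33.3%, interval 9.68% to 70%), against 44.3% of the whole list. With the other PC3 FOXA2 experiments in place of the vehicle list, 6 of 44 (13.6%, interval 6.4% to 26.7%) and 4 of 33 (12.1%, interval 4.82% to 27.3%) overlapped JUN, beside 20.6% and 23.6% of those whole lists. JUN overlapped 2 of 5 NCI-H660 FOXA2 regions, also at KRT18 and FKBP5 (40%, interval 11.8% to 76.9%), against 36.4%. Of the 3 LNCaP siNC JUN regions, 1 overlapped JUN of PC3 or NCI-H660 (33.3%, interval 6.15% to 79.2%), whereas 75.5% of that whole list did. Of the 12 NCI-H660 siNC JUN regions 12 were accessible in NCI-H660 (whole list 86%), and 10 of 10 PC3 siNC JUN regions were accessible in PC3 (whole list 96%). After siFOXA2 in NCI-H660, 16 of 22 JUN regions were accessible there (72.7%, interval 51.8% to 86.8%), beside 31.5% of that whole list. In PC3 or NCI-H660, 12 of 20 JUN regions of LNCaP_FOXA2OE were accessible (60%, interval 38.7% to 78.1%, whole list 35.7%). For LNCaP_FOXA2K265R it was 16 of 31 (interval 34.8% to 68%, whole list 36.1%). Promoters held 11 of the 22 NCI-H660 regions, 10 of the 20 of LNCaP_FOXA2OE and 14 of the 31 of LNCaP_FOXA2K265R. The whole lists are not limited to regions near genes, so these shares are not like for like. Whether they differ was not tested. Between the LNCaP lines with introduced FOXA2, 6 JUN regions near the 8 genes were shared. These were 6 of 20 in LNCaP_FOXA2OE (30%, whole list 37%) and 6 of 31 in LNCaP_FOXA2K265R (19.4%, whole list 18.7%).

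Motif content separated the JUN lists. Within 100 bp of the region centre, 7 of 10 PC3 siNC JUN regions near the 8 genes held an AP-1 motif, beside 49.5% of that whole list. In NCI-H660 the numbers were 2 of 12 after siNC (13.8% of the whole list) and 4 of 22 after siFOXA2 (4.99%). In LNCaP they were 2 of 3 after siNC (25.4%), 1 of 20 in LNCaP_FOXA2OE (2.39%) and 3 of 31 in LNCaP_FOXA2K265R (4.09%). The last of these whole lists were also rich in G and C, with median contents of 63.7% in LNCaP_FOXA2OE and 57.7% in LNCaP_FOXA2K265R, against 43.3% in LNCaP siNC and 42.3% in PC3 siNC. The part of base composition in the counts of these lists was not tested. Forkhead motifs were in 4 of 6 PC3 vehicle FOXA2 regions (77.3% of the whole list) and in 3 of 5 of NCI-H660 (75.9%). In the LNCaP_FOXA2OE FOXA2 list, with no region near the 8 genes, 26.4% of the whole list held one. An element within 2 mismatches of the androgen response element was within 100 bp of the centre of 15 of 486 regions (3.09%, interval 1.88% to 5.03%), against 1.11% of all deposited regions. The searches found 8 distinct matches, of which the one at chr21:42946591-42946605 lay just outside its PC3 ATAC region. Several lists share a site, and 6 of the 15 regions held the match upstream of TMPRSS2 that is printed above. The regions are therefore not independent, the interval is too narrow, and a difference from the 1.11% was not tested. No LNCaP region was among the 15. With at most 1 mismatch there were 2 regions, both of NCI-H660 and over the full element of FKBP5, which the PC3 regions hold further from their centres.

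The members were set beside 24 other androgen pathway and luminal genes. In LNCaP siNC cells JUN lay near 3 of these 24 genes, KLK4, whose region is the one between KLK2 and KLK4, PTGER4 and STEAP4, and 12.5% is close to the background of 13.4%. In PC3, JUN after siNC and FOXA2 after vehicle each lay near 19 of 24 genes (79.2%, backgrounds 62.8% and 54.1%). In NCI-H660, JUN after siNC lay near 15 (62.5%, background 66.3%) and FOXA2 after vehicle near 12 (50%, background 37.6%). ABCC4, a transporter, had the most regions for JUN (10) and FOXA2 (8) in PC3 and for FOXA2 (7) in NCI-H660. For NCI-H660 JUN it had 4, which was not the most. FOLH1, which encodes prostate-specific membrane antigen, had 0 in each of these control lists. These counts were not adjusted for window length. The promoters of 24 of the 24 genes were in PC3 ATAC (background 77.6%) and 22 in PC3 H3K27ac (68.1%), and 21 were in each of the NCI-H660 ATAC (74.7%) and H3K4me2 (74.5%) lists.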

How the data were processed

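ChIP-seq and ATAC-seq regions of 22 samples in 3 cell lines were analysed. The authors mapped paired-end reads to hg19 with BWA 0.7.17-r1188, converted them with SAMtools 1.9 and called enriched regions with MACS2 2.1.4. FastQC 0.11.9 is also named in their processing notes. Control libraries, caller settings and pooling are not given in the sources used here. The deposited score of a region is a whole number from the peak caller, read here as rising with significance. It was used only to rank regions within a list.

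Gene bodies and canonical transcripts came from GENCODE release 44 on hg19, windows extended 50 kb on each side, and regions that shared at least 1 bp were taken as overlapping. Motifs were searched in the bases within 100 bp of a region's centre, in the GRCh37 reference. Sequences are from the same reference and not from the cell lines, and promoter sequences of another build were not used. The members, gene lists and comparisons were chosen with earlier results of these data known. Named regions were the highest-scoring one of each control list in each window, those that LNCaP siNC JUN overlapped and those at member promoters. Other named regions, such as those kept, lost or new after a treatment, were chosen after their values were seen. With 1 list per condition no test was run, and shares carry Wilson 95% intervals. Overlap and interval code was tested on simulated regions. Python 3.11.15, NumPy 2.4.6, pandas 2.3.3 and matplotlib 3.10.9 were used. Alternatives were other window sizes, overlap rules, score minimums, lists of equal length and removal of places shared by at least 17 lists. Values of 1 gene of the pathway list and the sequence of 1 region are not reported here.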

Additional observations from a re-analysis of the deposited data

Results flagged for a closer look

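The number of JUN regions near the 8 genes moved in opposite directions after FOXA2 silencing in the androgen receptor-negative lines. In NCI-H660 it rose by 10, from 12 regions after siNC to 22 after siFOXA2. In PC3 it fell by 8, from 10 to 2. With 1 list per condition, the difference between the lines was not tested. The whole lists moved the same way, from 18401 to 59452 regions in NCI-H660 and from 23890 to 4081 in PC3. AP-1 motifs were in 13.8% of the NCI-H660 list after siNC and 4.99% after siFOXA2, and median G and C content was 50.7% and 53.7%. The part of these list properties in the counts was not tested.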

How the results depend on the processing

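For 18 results, 93 alternative values were computed, of which 84 stayed within the interval or limits of the reported value. With windows of 10 kb, LNCaP siNC JUN lay near 2 of 8 genes, PC3 JUN after siFOXA2 kept 0 of 7 regions (0%), and 1 of 1 LNCaP siNC JUN region (100%) overlapped JUN of PC3 or NCI-H660. With lists reduced to the length of the LNCaP siNC JUN list, LNCaP_FOXA2OE JUN lay near 2 genes, and LNCaP_FOXA2K265R JUN, PC3 vehicle FOXA2 and PC3 siNC JUN near 3 each. Androgen response elements were in 7.41% of regions within 250 bp of the centre, and in 0.412% with at most 1 mismatch, where the number of bases searched and the letters allowed set the count. All 6 PC3 vehicle FOXA2 regions near the 8 genes were found in both other PC3 FOXA2 experiments, beside 90.4% of the whole vehicle list. Those lists were longer, with 77822 and 62714 regions. Leaving out either experiment could not change the 100%, so it gave no further check. Score minimums and a stricter overlap changed no count beyond its limits, but the minimum of 30 removed nothing from LNCaP_FOXA2OE JUN, whose lowest score was 30. No JUN or FOXA2 region near the 8 genes lay at a place shared by at least 17 lists. Removing such places therefore could not change these values and gave no further check, although the outcomes are counted among the 84. No paired analysis was possible because each condition had 1 list. Depth is unknown, so lists of few regions limit what an absent region shows.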

Other observations

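Long stretches of the loci held no region of any list of a line. The longest in NCI-H660 were 79.5 kb at NR3C1, 60.3 kb at FKBP5, 55.8 kb at TMPRSS2, 45.2 kb at STEAP2, 23.5 kb at the keratins and 18.7 kb at the KLK locus. In PC3 they were 53.7 kb at NR3C1, 50.9 kb at FKBP5, 34.6 kb at the KLK locus, 27.1 kb at STEAP2, 19.3 kb at the keratins and 15.1 kb at TMPRSS2.

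The stretch of chromosome 21 between ERG and TMPRSS2 was also compared, because NCI-H660 is known to carry a fusion of these genes. Merged regions of all lists numbered 66 in NCI-H660 and 235 in PC3 there, and the longest stretch without a region was 496 kb in NCI-H660 (chr21:40033705-40529827) and 151 kb in PC3. Over 2 Mb on either side of TMPRSS2 the numbers were 199 and 483, with longest empty stretches of 227 kb and 151 kb. These counts and stretches, and those of the loci above, pool 6 lists of NCI-H660 and 11 of PC3. The longest of these lists held 99959 regions in NCI-H660 and 210960 in PC3. No rate over the genome was computed, so the values cannot show a difference particular to this stretch. Copy number was not measured, and its part in these values was not tested.

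Factor regions were also counted near 8 basal and mesenchymal and 8 neuroendocrine marker genes. In PC3, siNC JUN lay near 7 of the basal and mesenchymal and 4 of the neuroendocrine genes (62.8% of all genes), and vehicle FOXA2 near 7 and 2 (54.1% of all genes). Of these genes TP63 had the most regions in PC3, with 9 for each factor, in counts not adjusted for window length. In NCI-H660, siNC JUN lay near 4 basal and mesenchymal and 7 neuroendocrine genes (66.3% of all genes), and vehicle FOXA2 near 3 of each (37.6% of all genes). In LNCaP siNC cells JUN lay near 2 and 1 (13.4% of all genes), the last being CHGA. Whether the marker groups differ was not tested.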
